A study of Mus musculus with 8 samples.

Results

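The genes of the transforming growth factor beta (TGF-beta) superfamily and of its receptors, carriers, antagonists and SMAD proteins were followed in liver RNA of male mice of the inbred strain C57BL/6J. The set was given by gene symbol, as 45 names in 10 roles, and not by measured values. Of these, 44 had a row in the deposited table of 16122 genes and 43 passed the filter on low counts. Fstl3 had a row but did not pass the filter, and Tgfbi is not analysed here. Bulk RNA sequencing gave 4 libraries of a group labelled NASH (nonalcoholic steatohepatitis, a fatty and inflamed liver) and 4 of a group labelled WT. Both groups carry the wild-type genotype, so WT names the controls and not a genotype contrast. The design text describes mice bought at 8 weeks of age that then spent 28 weeks on normal food or on food high in fructose, fat and cholesterol. NASH is taken here to be the group on the high-fat food, with WT on normal food, although no label joins group and diet. The count columns headed Control were taken as WT in the same way. Whether every library is a separate animal is not labelled, and p-values therefore rest on a spread among libraries that could be technical in part.

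TGF-beta superfamily ligands are secreted dimers that bring together type II and type I receptor kinases on the cell surface. TGF-beta and activin receptors pass the signal mainly to SMAD2 and SMAD3, and BMP receptors to SMAD1, SMAD5 and SMAD9. SMAD4 is the shared partner, and SMAD6 and SMAD7 are feedback inhibitors. In liver, TGF-beta is known as a driver of matrix production by stellate cells. BMP ligands from sinusoidal endothelium are known to raise the hepatocyte iron hormone hepcidin.

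Counts per library summed to between 25760117 and 28274613 in NASH and between 27204662 and 32684719 in WT. Levels of 1 gene are given as CPM, read counts set to the same total in every library, with TMM as the correction for RNA composition. Fold changes and adjusted p-values come from edgeR's quasi-likelihood test on all 12351 genes tested, with a threshold of 0.05. The hepatocyte marker list led by Alb marks these libraries as liver, with a summed level of 38510 to 100700 CPM in NASH and 139100 to 174600 CPM in WT. Stab2, the defining marker of the sinusoidal endothelium list, was near 0, with a mean of 0.136 CPM in NASH and 0.252 CPM in WT. The other 6 markers of that list were all detected. By Alb, NASH replicate 3 stood apart, at 4.42% of its counts against 7.47% to 9.12% in the other NASH libraries and 9.84% to 13.3% in WT. On the first principal component of the most variable genes, the axis of widest difference, NASH replicates 3 and 4 lay at −46.3 and −36.8. NASH replicates 1 and 2 lay between these and WT, at −0.33 and −10.6, with WT at 18.7 to 26.4.

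Ligands, latent TGF-beta binding proteins and genes of the follistatin family made up most of the members that rose in NASH livers, and no SMAD gene passed the test. Of the 43 members tested, 11 were higher in NASH, 1 was lower and 31 did not pass. Across all genes tested, 12.9% were higher and 6% lower by the same rule, 18.9% in all, so the members' 12 calls make a share of 27.9%. The calls lay among the TGF-beta ligands (2 of 3), the latent TGF-beta binding proteins (2 of 4), the BMP and GDF ligands (3 of 9), the follistatins (2 of 2 tested), the type I receptors (1 of 5) and the type II receptors (1 higher and 1 lower of 4). None of the 4 activin and inhibin subunits, the 3 co-receptors or the 9 SMAD and SKI-like genes passed. The median log2 fold change was 0.35 over the 43 members and 0.012 over all genes tested. The members' median was 0.086 without NASH replicate 3 and 0.22 without NASH replicate 4. Groups were fully separate for 11 of the 43 members with NASH higher and for 3 of 43 with NASH lower. Of all genes tested, 14.6% and 12.2% were separate in these directions, so the members' share was above the first and below the second. These 11 were not the 11 called higher. Tgfb1 and Gdf15 were called but overlapped, while Gdf2 and Tgfbr1 were separate but did not pass.

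**Figure D1:**
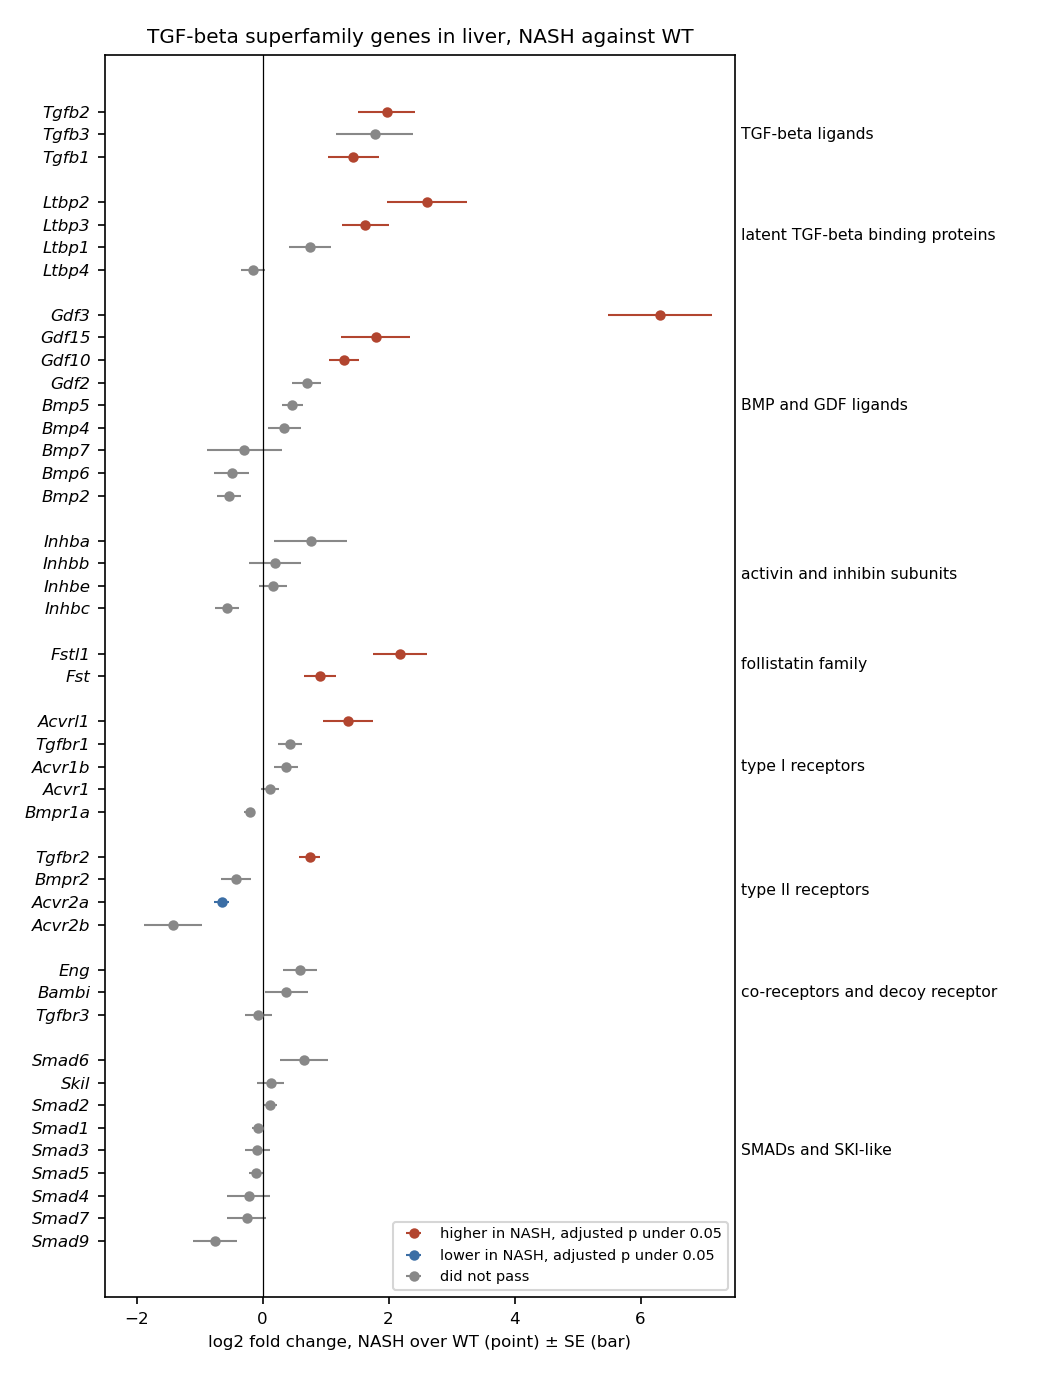
Log2 fold change of NASH over WT (x axis, points) with its standard error (bars) for the 43 members tested, grouped by role; red marks members higher in NASH, blue lower and grey those that did not pass. Gdf3 stands farthest to the right at 6.31, and Acvr2a is the member called lower. The SMADs lie on both sides of 0, from −0.75 (Smad9) to 0.66 (Smad6), and none passed.

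The number of members called higher depended on the libraries. Leaving out NASH replicates 1 to 4 in turn gave 15, 9, 7 and 5 such members, and leaving out WT replicates 1 to 4 gave 4, 6, 5 and 6. The number called lower was 3 without NASH replicate 1 and 2 without NASH replicate 3 or WT replicate 4. The calls of 5 members held with each library left out in turn: Gdf3, Gdf10, Fstl1, Ltbp3 and Acvr2a. With library totals in place of TMM, 18 members were higher and none lower. That scaling raised the median of all genes to 0.37, and 3071 genes were then higher and 220 lower, against 1597 and 741 with TMM. Limma-voom called 6 members higher and 1 lower.

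The TGF-beta ligands Tgfb1 and Tgfb2 rose. Tgfb1 (ENSMUSG00000002603, chromosome 7, 25687002 to 25705077 in GRCm38) is the TGF-beta isoform that immune cells make most widely. In the order of replicates 1 to 4, Tgfb1 stood at 8.98, 12.2, 32.6 and 24.2 CPM in NASH, against 7.37, 10.2, 5.21 and 6.02 CPM in WT. NASH replicates 3 and 4 were high, while NASH replicate 1 lay below WT replicate 2, so the groups overlapped. Its log2 fold change was 1.44 ± 0.40 (SE), or 2.72-fold (adjusted p = 0.0362). It no longer passed after removal of NASH replicate 3 (0.0748) or 4 (0.0945), of WT replicates 1 to 4 (0.0921, 0.0503, 0.0957 and 0.0929), or with limma-voom (0.0715).

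Tgfb2 (ENSMUSG00000039239, chromosome 1, 186622792 to 186705989) had 1.14, 2.44, 4.31 and 3.19 CPM in NASH, against 0.632, 0.948, 0.822 and 0.420 CPM in WT. Each NASH library was above each WT library. Its log2 fold change was 1.97 ± 0.45, or 3.92-fold (adjusted p = 0.0192), and it did not pass without NASH replicate 4 (0.0529) or WT replicates 1 (0.0617) or 4 (0.0526). Tgfb3, an isoform linked to mesenchymal cells, did not pass, with 1.30, 1.96, 5.71 and 9.11 CPM in NASH and 1.35, 1.75, 1.51 and 0.665 CPM in WT. NASH replicates 3 and 4 stood well above the WT range, NASH replicate 2 just above it and NASH replicate 1 within it. Its log2 fold change was 1.78 ± 0.61 (adjusted p = 0.0681), and it passed without NASH replicate 1 (0.0159), with library totals alone (0.0363) and with DESeq2 (0.0148). Without NASH replicate 4 it was 1.17. Genes on the other strand cover 12.4% of the Tgfb3 exon bases in GENCODE M21, and the strand setting of the counting is not given.

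The start regions of the called TGF-beta ligands, of their type II receptor Tgfbr2 and of Acvr2a, the member called lower, are printed to show how unlike they are in composition. Each is the 250 bases before the RefSeq start in GRCm38.p6, read in the direction of the gene, and capitals mark the letters of a searched motif. The regions are chr7:25686752-25687001 (plus strand) for Tgfb1, chr1:186705990-186706239 (minus) for Tgfb2, chr9:116175364-116175613 (minus) for Tgfbr2 and chr2:48813859-48814108 (plus) for Acvr2a.
Tgfb1: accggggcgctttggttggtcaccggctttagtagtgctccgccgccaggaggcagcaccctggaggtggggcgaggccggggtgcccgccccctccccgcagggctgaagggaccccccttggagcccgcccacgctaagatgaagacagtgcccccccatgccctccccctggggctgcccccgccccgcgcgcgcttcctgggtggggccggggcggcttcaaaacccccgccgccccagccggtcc
Tgfb2: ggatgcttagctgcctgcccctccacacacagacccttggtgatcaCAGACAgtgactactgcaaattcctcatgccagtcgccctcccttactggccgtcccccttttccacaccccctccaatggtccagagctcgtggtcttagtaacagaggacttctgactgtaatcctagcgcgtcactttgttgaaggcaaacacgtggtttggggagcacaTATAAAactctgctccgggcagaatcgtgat
Tgfbr2: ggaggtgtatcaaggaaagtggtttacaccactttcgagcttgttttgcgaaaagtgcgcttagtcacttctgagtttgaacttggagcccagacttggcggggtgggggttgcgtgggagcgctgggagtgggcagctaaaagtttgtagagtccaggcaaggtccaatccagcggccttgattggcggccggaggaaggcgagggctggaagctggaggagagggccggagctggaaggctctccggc
Acvr2a: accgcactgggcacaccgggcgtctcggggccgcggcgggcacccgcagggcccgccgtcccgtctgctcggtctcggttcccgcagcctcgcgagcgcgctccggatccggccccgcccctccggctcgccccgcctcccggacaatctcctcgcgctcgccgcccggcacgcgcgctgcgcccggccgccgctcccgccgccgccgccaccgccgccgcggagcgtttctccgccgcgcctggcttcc
Bases G and C made up 75.2% of the Tgfb1 region, 53.6% of the Tgfb2 region, 58.4% of the Tgfbr2 region and 82.0% of the Acvr2a region. The motifs searched on both strands were the SMAD-binding palindrome GTCTAGAC, the GC-rich SMAD element GGCGCC, the SMAD box CAGACA and the TATA box TATAAA, none of which overlapped in these regions. Tgfb2 alone of the 4 regions had matches, a CAGACA whose first base lies 204 bases before the start and a TATAAA 31 bases before it. Among all 32851 RefSeq start regions of this length, 0.167% hold GTCTAGAC, 9.59% GGCGCC, 17.1% CAGACA and 12.4% TATAAA. Start regions were listed for 8 of the 11 members called higher. Of these 8, CAGACA and TATAAA were found in Tgfb2 alone, and neither GTCTAGAC nor GGCGCC was found.

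Latent TGF-beta binding proteins tie the inactive ligand to the matrix, with the exception of LTBP2, which is not known to bind it. Ltbp2 (ENSMUSG00000002020, chromosome 12, 84783212 to 84876532) had 1.34, 2.81, 4.31 and 11.9 CPM in NASH, against 0.590, 0.875, 0.617 and 1.22 CPM in WT. NASH replicate 4 was the highest, and the groups did not overlap. Ltbp2 differed by a log2 fold change of 2.61 ± 0.64, or 6.12-fold (adjusted p = 0.0237), and 1.75 without NASH replicate 4. Removing NASH replicate 4 (0.0528) or WT replicates 1, 2 or 3 (0.0745, 0.0594 and 0.0694) ended the call, as did limma-voom (0.0931). An antisense gene covers 9.34% of the Ltbp2 exon bases.
Ltbp3 (ENSMUSG00000024940, chromosome 19, 5740904 to 5758532) had 3.94, 6.40, 9.84 and 7.64 CPM in NASH, against 2.78, 2.48, 2.67 and 1.05 CPM in WT. These ranges did not overlap either. Its log2 fold change of 1.63 ± 0.37, or 3.11-fold (adjusted p = 0.0180), passed with each library left out (adjusted p = 0.00532 to 0.0496). Ltbp1, a carrier of TGF-beta in many tissues, did not pass at 7.26 ± 2.79 CPM (SD) in NASH and 4.30 ± 1.29 CPM in WT (n = 4 libraries a group, adjusted p = 0.134). It passed with library totals alone (0.0494). Ltbp4, a carrier linked to elastic fibres, had 28.0 ± 5.35 CPM in NASH and 30.9 ± 7.29 CPM in WT (adjusted p = 0.604).

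Among the BMP and GDF ligands, Gdf3, Gdf10 and Gdf15 rose. Gdf3 (ENSMUSG00000030117, chromosome 6, 122605403 to 122610087), known from the early embryo and from macrophages of fat tissue, had 36, 56, 238 and 98 counts in NASH, against 0, 0, 3 and 1 in WT. The gene was thus almost unread in WT and read in each NASH library, most in replicate 3. The log2 fold change of 6.31 ± 0.83 (adjusted p = 0.0042) rests on 4 WT counts and was 7.58 without WT replicate 3, so its size is uncertain.
Gdf10 (ENSMUSG00000021943, chromosome 14, 33923587 to 33937983), also named BMP3b, had 10.5, 13.9, 22.5 and 18.8 CPM in NASH, against 7.88, 6.71, 5.38 and 6.86 CPM in WT. No NASH library reached down to the WT range, and NASH replicate 3 was again the highest. The log2 fold change was 1.30 ± 0.24, or 2.46-fold (adjusted p = 0.0109), and it passed with each library left out (adjusted p = 0.00221 to 0.0385).
Gdf15 (ENSMUSG00000038508, chromosome 8, 70629393 to 70632456), a stress-induced hormone that acts on the hindbrain through the receptor GFRAL, had 2.91, 7.51, 14.3 and 3.26 CPM in NASH. In WT it had 1.73, 1.09, 2.06 and 3.18 CPM. NASH replicate 1 lay within the WT range and NASH replicate 4 just above it. The log2 fold change of 1.79 ± 0.55 passed narrowly (adjusted p = 0.0487), and it was 1.16 without NASH replicate 3. Gdf15 passed when NASH replicate 1 was left out, but missed the threshold when NASH replicates 2, 3 or 4 (0.0817, 0.102 and 0.0517) or WT replicates 1 to 4 (0.123, 0.113, 0.105 and 0.063) were, with limma-voom (0.110) and with no low-count filter (0.0559).

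The other 6 BMP and GDF ligands did not pass. Gdf2, the stellate cell ligand BMP9 that signals to endothelium through ACVRL1, had 23.0, 27.1, 27.7 and 49.1 CPM in NASH and 21.1, 21.9, 17.4 and 17.5 CPM in WT. Its groups did not overlap, yet its log2 fold change of 0.70 ± 0.23 missed the threshold (adjusted p = 0.0587). It passed without NASH replicate 1 (0.0208), with library totals alone (0.0186) and with DESeq2 (0.0288). Bmp2 and Bmp6 are the endothelial ligands that regulate hepcidin. Bmp2 stood at 20.3 ± 4.62 CPM in NASH and 29.3 ± 5.05 CPM in WT (n = 4 each, log2 fold change −0.53 ± 0.18, adjusted p = 0.0711), and it passed as lower without NASH replicate 1 (0.0205) and with DESeq2 (0.0397). Bmp6 stood at 3.42 ± 1.35 CPM in NASH and 4.79 ± 0.451 CPM in WT (adjusted p = 0.239). Bmp5, which had 27.7 ± 4.48 CPM in NASH and 20.02 ± 3.72 CPM in WT, did not pass (adjusted p = 0.0757), but did without NASH replicate 1 (0.0253) and with library totals alone (0.0246). An antisense gene covers 46.7% of the Bmp5 exon bases in GENCODE M21, so its reads are less certain. Bmp4 and Bmp7 gave adjusted p = 0.370 and 0.752.

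**Figure D2:**
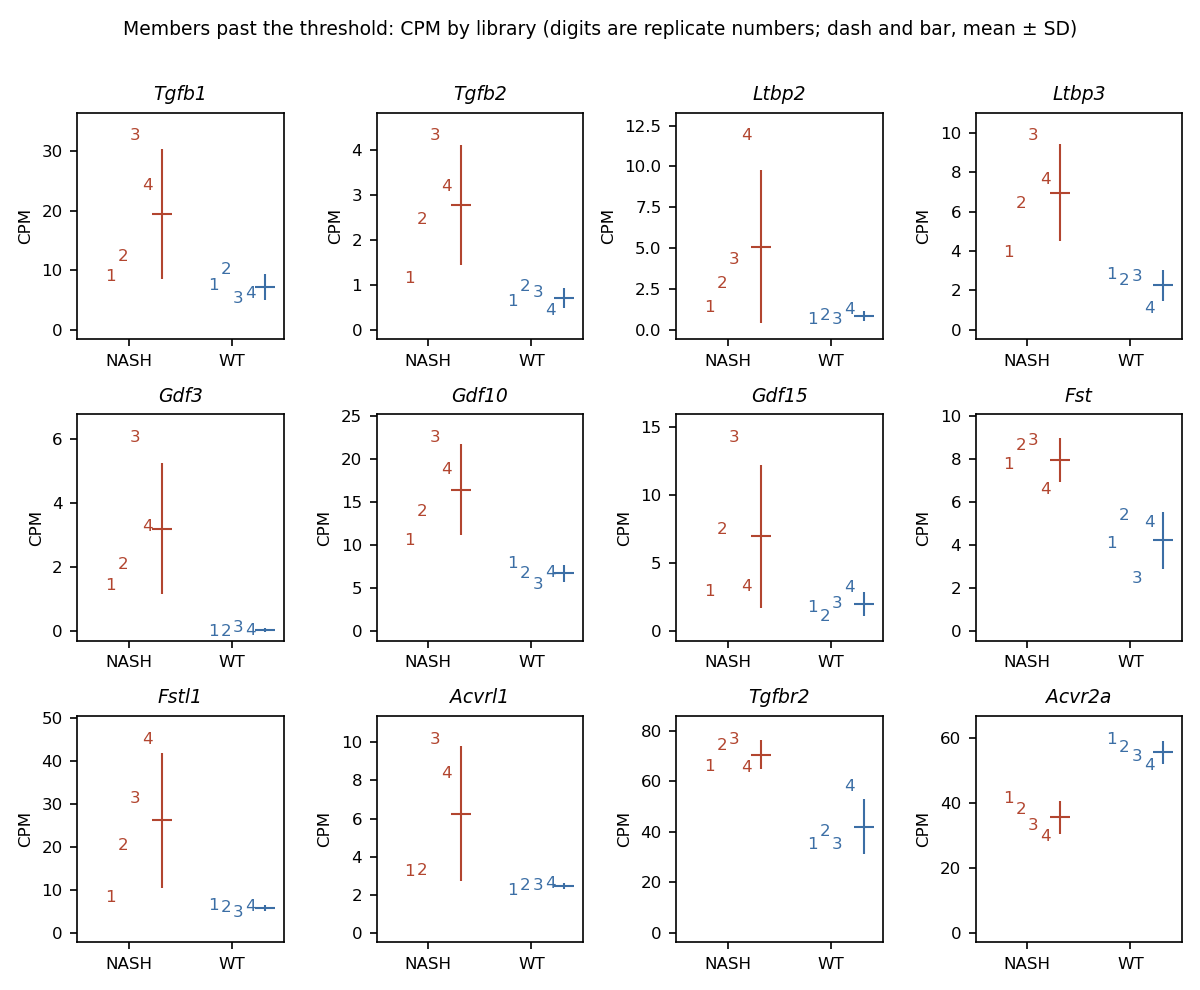
CPM (y axis) of the 12 members past the threshold in each NASH library (red, left) and WT library (blue, right); digits give the replicate number, the dash the mean and the bar the SD over 4 libraries. NASH replicate 3 is the highest for 9 of the 11 members called higher, NASH replicate 1 the lowest NASH library for 9 of them, and Acvr2a is the panel in which WT lies above NASH.

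No activin or inhibin subunit passed. Inhbc and Inhbe encode the hepatocyte subunits of activin C and activin E. Inhbc stood at 42.7 ± 7.99 CPM in NASH and 62.9 ± 13.8 CPM in WT (log2 fold change −0.56 ± 0.19, adjusted p = 0.0682). It passed as lower without NASH replicate 3 (0.0372), without WT replicate 4 (0.0336) and with DESeq2 (0.0378). An antisense gene covers 14.4% of the Inhbc exon bases. Inhbe stood at 76.3 ± 18.7 CPM in NASH and 68.0 ± 17.2 CPM in WT (adjusted p = 0.624). Inhba, the subunit of activin A, had 1.89, 2.11, 11.1 and 3.82 CPM in NASH and 1.85, 2.22, 4.66 and 2.41 CPM in WT (adjusted p = 0.361). NASH replicate 3 was the only library above 5 CPM, and the log2 fold change of 0.77 became −0.11 without it. Inhbb, the subunit of activin B, gave adjusted p = 0.756.

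Both genes tested of the follistatin family rose. Follistatin, encoded by Fst (ENSMUSG00000021765, chromosome 13, 114452290 to 114458951), binds and blocks activins. It had 7.76, 8.66, 8.88 and 6.58 CPM in NASH, against 4.09, 5.39, 2.43 and 5.04 CPM in WT, and the groups did not overlap. A log2 fold change of 0.91 ± 0.25, or 1.88-fold, passed (adjusted p = 0.0357). Fst missed the threshold on removing NASH replicates 2, 3 or 4 (0.0748, 0.0694 and 0.0594), and likewise on removing WT replicates 1, 3 or 4 (0.0977, 0.0593 and 0.0587).
Fstl1 (ENSMUSG00000022816, chromosome 16, 37776873 to 37836514), a secreted glycoprotein of mesenchymal cells, had 8.23, 20.2, 31.2 and 45.1 CPM in NASH, against 6.28, 5.98, 4.66 and 6.19 CPM in WT. NASH replicate 1 lay only just above WT, while the other NASH libraries were over 3 times the highest WT level. Its log2 fold change of 2.18 ± 0.43, or 4.54-fold (adjusted p = 0.0132), passed with each library left out (adjusted p = 0.000829 to 0.0450) but not with limma-voom (0.0503). Fstl3, another activin antagonist, lay below the low-count filter with 144 counts in NASH and 20 in WT. Of its NASH counts, 99 were in replicate 3, and without the filter it gave adjusted p = 0.0735. Exons of Prss57 on the other strand cover 47.3% of the Fstl3 exon bases, so its reads are less certain.

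Among type II receptors, Tgfbr2 rose and Acvr2a fell. Tgfbr2 (ENSMUSG00000032440, chromosome 9, 116084293 to 116175360), the receptor that binds TGF-beta, had 66.1, 74.4, 76.8 and 65.4 CPM in NASH, against 35.1, 40.1, 34.8 and 58.0 CPM in WT. NASH libraries were close to each other, and WT replicate 4 was the nearest WT library to them. Tgfbr2 rose by a log2 fold change of 0.75 ± 0.17, or 1.68-fold (adjusted p = 0.0180), and it did not pass without WT replicates 1, 2 or 3 (0.0607, 0.0521 and 0.0564).
Acvr2a (ENSMUSG00000052155, chromosome 2, 48814109 to 48903269), a type II receptor for activins and several BMPs, had 41.3, 38.0, 32.9 and 29.7 CPM in NASH, against 59.5, 56.8, 54.0 and 51.3 CPM in WT. Its groups did not overlap, and the log2 fold change was −0.64 ± 0.12 (adjusted p = 0.0109). It passed with each library left out (adjusted p = 0.00354 to 0.0432), but not with library totals alone, where it was −0.30 (adjusted p = 0.0945). Exons of Orc4 on the other strand cover 7.84% of its exon bases. The counts of Tgfbr2 divided by those of Acvr2a were 1.60, 1.96, 2.34 and 2.20 in NASH and 0.590, 0.706, 0.644 and 1.13 in WT, values given with no test. Scaling does not touch this ratio, but the pair was picked after being called in opposite directions. The ratio is therefore no separate evidence that Acvr2a fell.
Acvr2b, its close relative, had 0.433, 0.703, 0.533 and 0.931 CPM in NASH and 1.01, 1.90, 1.10 and 3.01 CPM in WT. Those groups did not overlap, and the log2 fold change of −1.43 ± 0.46 did not pass (adjusted p = 0.0577, and 0.0146 with DESeq2). Its counts summed to 79 in NASH and 194 in WT. Bmpr2, the type II receptor of BMPs, gave 4.36 ± 0.629 CPM in NASH and 5.86 ± 1.55 CPM in WT (adjusted p = 0.230).

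Of the type I receptors, Acvrl1 rose. Acvrl1 (ENSMUSG00000000530, chromosome 15, 101128522 to 101145336), the endothelial receptor ALK1 for BMP9, had 3.23, 3.26, 10.2 and 8.34 CPM in NASH, against 2.23, 2.48, 2.47 and 2.59 CPM in WT. NASH replicates 3 and 4 stood well above NASH replicates 1 and 2, and all 4 were above WT. Acvrl1 had a log2 fold change of 1.36 ± 0.39, or 2.56-fold (adjusted p = 0.0396). It missed the threshold when NASH replicates 3 or 4 (0.0854 and 0.109) or any of WT replicates 1 to 4 (0.106, 0.0881, 0.0908 and 0.0862) were removed, and with limma-voom (0.0950).
Tgfbr1, the type I partner of TGFBR2, did not pass, with 52.8, 53.0, 96.03 and 60.3 CPM in NASH and 47.8, 48.4, 46.0 and 51.8 CPM in WT (log2 fold change 0.43 ± 0.19, adjusted p = 0.130). All its NASH libraries lay above WT, 2 of them narrowly, and it passed with library totals alone (0.0491). Bmpr1a, a BMP receptor of hepatocytes, had 61.6 ± 1.43 CPM in NASH and 71.0 ± 2.61 CPM in WT, with no overlap (log2 fold change −0.21 ± 0.08, adjusted p = 0.104). It passed as lower with DESeq2 (0.0192), and its sign turned to 0.16 with library totals alone. Acvr1, a BMP receptor, and Acvr1b, an activin receptor, gave adjusted p = 0.566 and 0.190, and Acvr1b passed with library totals alone (0.0472).

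No co-receptor or decoy receptor passed. Endoglin, encoded by Eng, is an endothelial co-receptor of BMP9 and TGF-beta. Eng had 54.2, 76.1, 55.7 and 121 CPM in NASH and 50.5, 63.1, 39.1 and 50.5 CPM in WT (adjusted p = 0.137, and 0.0327 with library totals alone). NASH replicate 4, its highest library, was also the highest in the endothelial marker sum. Betaglycan, encoded by Tgfbr3, presents TGF-beta to its receptors and stood at 18.9 ± 4.46 CPM in NASH and 19.9 ± 4.69 CPM in WT (adjusted p = 0.842). Bambi, a receptor-like protein that lacks the kinase domain, gave adjusted p = 0.436.

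None of the SMAD genes passed. Smad2, which carries TGF-beta and activin signals, had 18.4 ± 0.826 CPM in NASH and 16.9 ± 1.67 CPM in WT (log2 fold change 0.12 ± 0.11, adjusted p = 0.455). Smad3, its partner, had 19.5 ± 5.36 CPM in NASH and 20.6 ± 2.11 CPM in WT (−0.08 ± 0.20, adjusted p = 0.789). Smad1, a carrier of BMP signals, had 19.9 ± 0.856 CPM in NASH and 21.0 ± 0.553 CPM in WT (−0.08 ± 0.09, adjusted p = 0.562), so 4 libraries a group agreed closely. Smad5, which carries BMP signals too, had 36.4 ± 4.06 CPM in NASH and 39.2 ± 3.05 CPM in WT (adjusted p = 0.501). Signs this near 0 follow the scaling, and with library totals alone the log2 fold changes of Smad1, Smad3, Smad4, Smad5 and Smad7 turned positive.
Smad9, the BMP carrier also called SMAD8, was the SMAD with the widest difference, at 28.3, 20.7, 9.49 and 13.4 CPM in NASH and 25.4, 18.8, 37.7 and 38.8 CPM in WT. Its groups overlapped and the log2 fold change of −0.75 ± 0.35 did not pass (adjusted p = 0.154), though it did without NASH replicate 1 (0.0346). Smad7, the feedback inhibitor of TGF-beta signalling, had 2.05, 1.63, 2.41 and 2.76 CPM in NASH and 2.57, 1.64, 2.57 and 3.74 CPM in WT (log2 fold change −0.25 ± 0.31, adjusted p = 0.588). Smad6, the feedback inhibitor of BMP signalling, had 2.76, 5.89, 3.17 and 8.44 CPM in NASH and 3.37, 3.43, 2.12 and 3.88 CPM in WT (adjusted p = 0.233). NASH replicates 2 and 4 were above the WT range and the other NASH libraries within it. Skil, a SMAD corepressor that TGF-beta induces, gave adjusted p = 0.695. Smad4 was read little, with 181 counts in NASH and 185 in WT, or means of 1.47 and 1.71 CPM. Its log2 fold change of −0.22 ± 0.34 did not pass (adjusted p = 0.663), and counts this low limit what the test can show.

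Set per kilobase of merged GENCODE M21 exons, levels can be ordered between members. Inhbc had the highest mean in both groups, with 23.0 ± 4.30 CPM per kilobase in NASH and 33.8 ± 7.43 in WT (SD over 4 libraries a group). Eng followed in NASH with 19.0 ± 7.73, against 12.6 ± 2.42 in WT, and Inhbe with 14.3 ± 3.52 in NASH and 12.8 ± 3.24 in WT, so Eng and Inhbe did not differ beyond their spread in either group. Nor did Inhbc and Eng in NASH, where Eng was above Inhbc in replicate 4, at 30.0 against 24.2 CPM per kilobase. Among ligands other than activins, Gdf2 led in NASH at 10.6 ± 3.94 CPM per kilobase, against 6.52 ± 0.796 in WT, and Bmp2 led in WT at 8.24 ± 1.42, against 5.70 ± 1.30 in NASH.
The TGF-beta isoforms were lower on this scale. Tgfb1 reached 3.87 ± 2.16 CPM per kilobase in NASH and 1.43 ± 0.432 in WT, Tgfb3 1.34 ± 1.07 in NASH and 0.389 ± 0.138 in WT, and Tgfb2 0.479 ± 0.230 in NASH and 0.122 ± 0.0398 in WT. Tgfb1 was thus the most read isoform in each group. Of the type II receptors, Tgfbr2 led in NASH at 8.63 ± 0.706 CPM per kilobase, against 5.13 ± 1.34 in WT, and Acvr2a led in WT at 9.75 ± 0.624, against 6.24 ± 0.911 in NASH. The annotation behind the deposited counts is not given, so exon lengths may differ from those used to count.

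**Figure D3:**
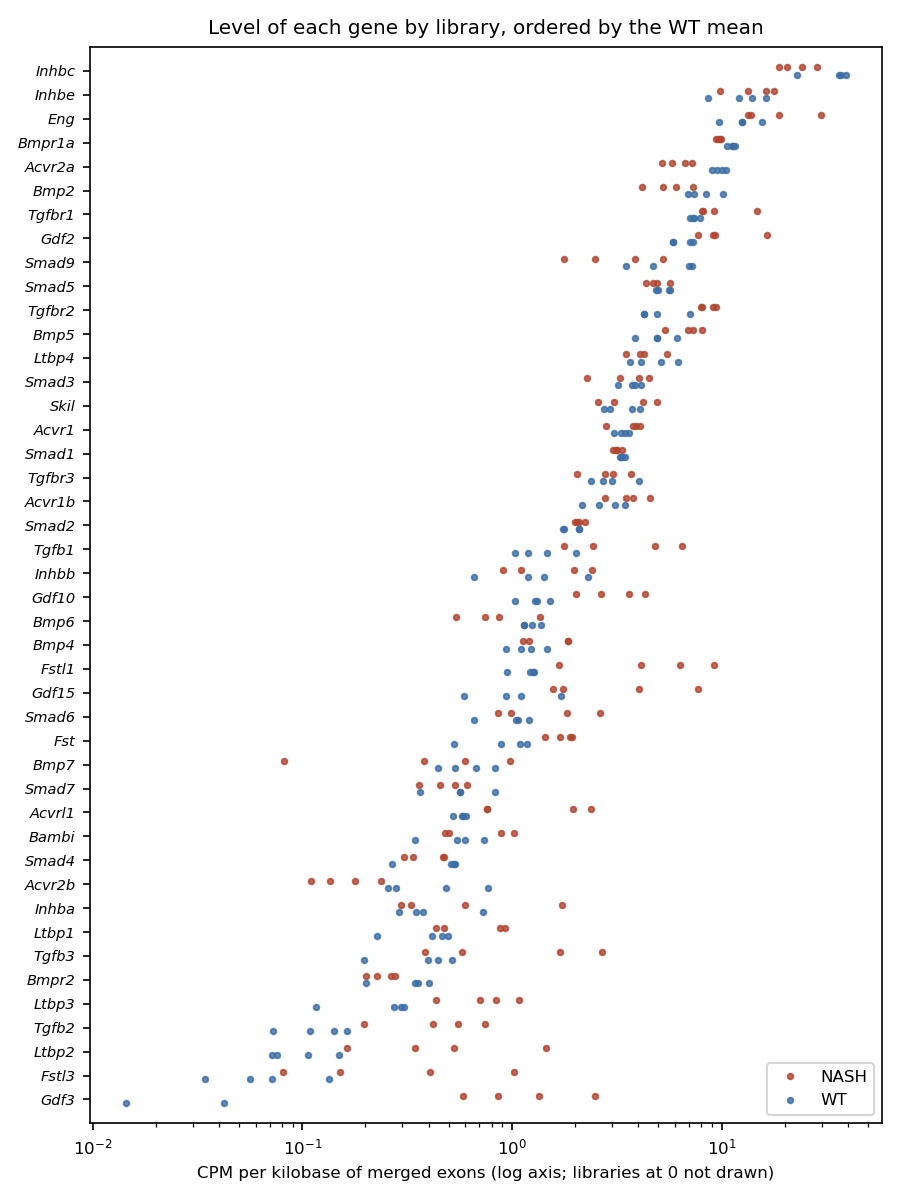
Level of each of the 44 members with a row, in CPM per kilobase of merged exons (log axis), with 1 point per library, NASH in red and WT in blue, ordered by the WT mean. Activin C and E subunits and Eng stand at the top, TGF-beta isoforms and their binding proteins below, and Gdf3 at the bottom in WT.

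Other genes of the pathway were read from 7 lists of general knowledge, in the same fit. Of 115 entries, 103 had a row and 76 were tested, with 26 higher and 3 lower in NASH, a share of 38.2% beside 18.9% of all genes. All 7 lists were chosen with earlier results of these data known, so that share is not independent evidence. Removing NASH replicate 4 left 17 of them higher, removing WT replicate 1 left 11 higher and 1 lower, and removing WT replicate 3 left 15 higher.
Genes known to be induced by TGF-beta were higher in 12 of 16, with a median log2 fold change of 2.45. The fibrillar collagen chains Col3a1, Col1a2 and Col1a1 rose by 3.81 ± 0.46, 3.60 ± 0.45 and 4.78 ± 0.60 (adjusted p = 0.00349, 0.00379 and 0.00379), and the matrix glycoprotein gene Tnc by 3.42 ± 0.53 (adjusted p = 0.00691). Without NASH replicate 4 the value of Col1a1 was 4.10. Matrix genes were already known to be higher in these libraries when the list was chosen, so its count is not independent evidence of the direction.
Storage and activation genes of latent TGF-beta were higher in 7 of 14, with a median of 0.98. The gelatinase Mmp2 rose by 1.66 ± 0.25 (adjusted p = 0.00613) and fibrillin-1, encoded by Fbn1, by 2.04 ± 0.38 (adjusted p = 0.0112). The integrin subunit Itgb5 rose by 0.90 ± 0.19 (adjusted p = 0.0143) and the protease Plau by 2.50 ± 0.52 (adjusted p = 0.0148). Both of these lost the call without WT replicate 1 (0.0518 for Itgb5 and 0.0504 for Plau).

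Of 10 extracellular antagonists and ligand traps tested, 3 rose, with a median of 0.70 over the list. Bmper, a secreted BMP-binding protein, rose by 3.28 ± 0.63 (adjusted p = 0.0123), and by 4.20 without WT replicate 4. The small proteoglycans Dcn and Bgn, which can bind TGF-beta, rose by 0.83 ± 0.19 and 0.83 ± 0.22 (adjusted p = 0.0196 and 0.0319). Dcn lost the call without NASH replicate 4 (0.0555) and WT replicates 1, 3 and 4 (0.0565, 0.0662 and 0.0618). Bgn lost it without NASH replicates 2 and 4 (0.0512 and 0.0657) and WT replicates 1 to 4 (0.0785, 0.0676, 0.0893 and 0.0838).
Intracellular regulators had 3 of 22 members lower and 1 higher, with a median of −0.10. That share of 18.2% was close to the 18.9% of all genes tested. Zfyve9, the SMAD anchor SARA, fell by 0.66 ± 0.14 (adjusted p = 0.0143). The ubiquitin ligases Smurf2 and Nedd4l, which mark SMADs and receptors for degradation, fell by 0.42 ± 0.09 and 0.44 ± 0.11 (adjusted p = 0.0143 and 0.0254). None of these 3 passed with library totals alone (0.117, 0.725 and 0.654). Smurf2 also lost the call without WT replicate 1 (0.0529), and Nedd4l without WT replicates 1 to 4 (0.0702, 0.064, 0.0628 and 0.064). The endocytic adaptor Dab2 rose by 1.08 ± 0.26 (adjusted p = 0.0227), a call that ended on removing NASH replicate 4 (0.0621) or WT replicates 1 to 4 (0.0678, 0.058, 0.0576 and 0.0613).
Genes known to be induced by BMP were higher in 1 of 7, a share of 14.3%, with a median of −0.38. That gene was Hey1, a repressor that Notch also induces, which rose by 3.16 ± 0.54 (adjusted p = 0.00847). The BMP co-receptor Rgma rose by 2.71 ± 0.46 (adjusted p = 0.00853), as the 1 call among 4 other receptors and co-receptors tested. The ligand Gdf6 rose by 1.64 ± 0.40 (adjusted p = 0.0222), as the 1 call among 3 other ligands tested. Gdf6 missed the threshold on removing NASH replicate 4 (0.0638) or WT replicates 1, 2 or 3 (0.0529, 0.0605 and 0.0511).

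Marker sums separated the groups for recruited and lipid-associated macrophages (higher in NASH) and for hepatocytes (lower), and overlapped for the other lists. Fewer cells of a type and less RNA per cell cannot be told apart in bulk liver. The list of recruited and lipid-associated macrophages, led by Trem2, was higher in 6 of 7 markers and summed to 174, 237, 999 and 685 CPM in NASH, against 59.8, 95.1, 28.3 and 54.0 CPM in WT. Stellate cell markers, led by Lrat, were higher in 2 of 7 and summed to 263, 344, 472 and 545 CPM in NASH, against 255, 290, 211 and 235 CPM in WT. Hepatocyte markers passed in 0 of 5, and their sums did not overlap, as given above. Kupffer cell markers, led by Clec4f, summed to 321 to 1111 CPM in NASH and 112 to 342 CPM in WT, and 1 of 5 was higher. That marker was Cd5l, with a mean of 410 CPM in NASH and 71.5 CPM in WT, the largest part of the NASH sum. The others did not pass and differed in direction. Clec4f and Vsig4 had higher means in NASH. Timd4 had 4.88 CPM in NASH and 10.5 CPM in WT, and Marco 11.7 and 31.8 CPM. Sinusoidal endothelium markers summed to 260 to 492 CPM in NASH and 229 to 336 CPM in WT, with none of the 6 tested past the threshold.
Cholangiocyte markers, led by Krt19, summed to 8.43 to 45.3 CPM in NASH and 15.4 to 19.2 CPM in WT, with 1 of 4 higher. Lymphocyte markers, led by Cd3e, summed to 1.77 to 4.29 CPM in NASH and 1.08 to 3.42 CPM in WT, and smooth muscle markers, led by Myh11, to 2.89 to 9.54 CPM in NASH and 3.24 to 6.54 CPM in WT. NASH replicate 3 was the highest NASH library for 9 of the 11 members called higher, for Fst and Tgfbr2 only narrowly. The other 2, Ltbp2 and Fstl1, were highest in NASH replicate 4. Replicate 3 had the highest macrophage sum, and also the highest Kupffer cell, cholangiocyte and lymphocyte sums. NASH replicate 4 had the highest stellate cell, sinusoidal endothelium and smooth muscle sums, so neither library points to 1 cell type. How often all called genes peak in each library was not counted. The part of these cell markers in the members' values was not tested.

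**Figure D4:**
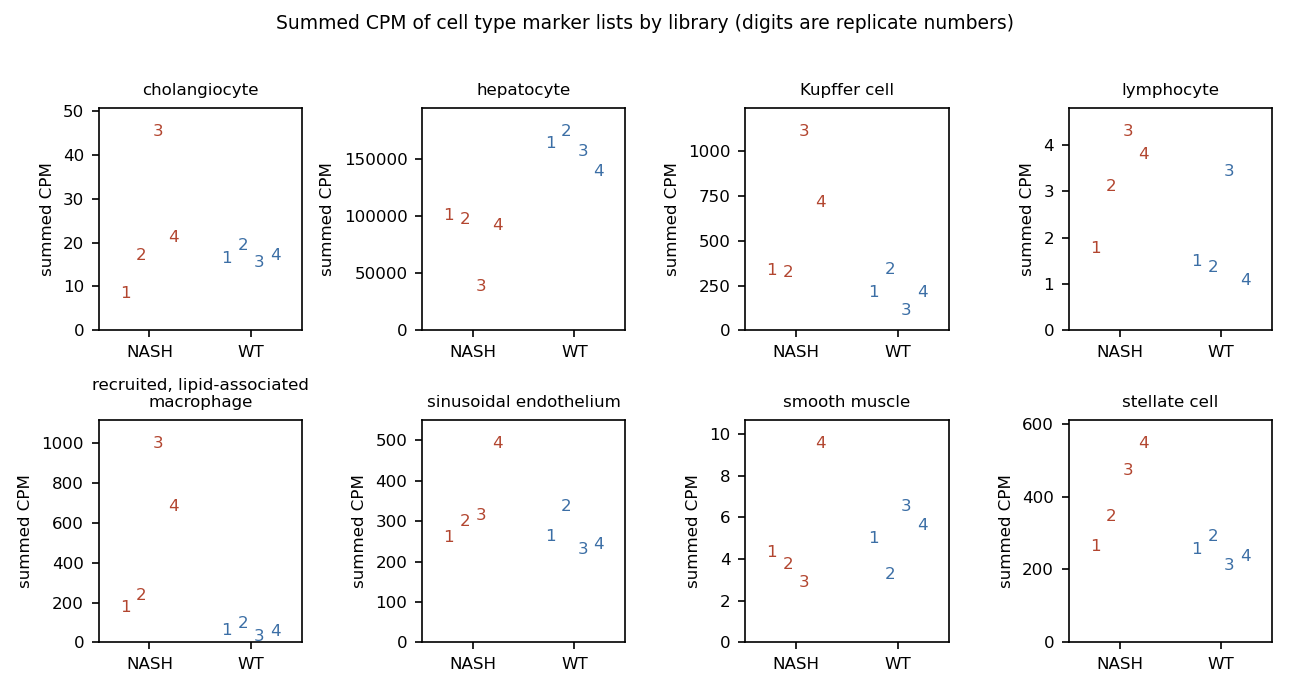
Summed CPM (y axis) of each marker list in the NASH libraries (red, left) and WT libraries (blue, right), with digits for replicate numbers. NASH replicate 3 reached 999 CPM in the macrophage list and 38510 CPM in the hepatocyte list, and NASH replicate 4 reached 545 CPM in the stellate cell list.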

How the data were processed

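The 8 liver libraries, 4 NASH and 4 WT, stand in 1 table. RNA came from frozen tissue by Trizol and went into a stranded total RNA kit (TruSeq), per the labels' protocols. The submitters' processing notes name HISAT2, HTSeq 0.9.1 and the builds mm9 and mm10 without roles, and neither annotation nor strand setting is given in the sources used here. Per the file headers, the first block holds raw counts per gene as the authors deposited them, for 16122 protein-coding genes with at least 1 read each. Another 8 columns of normalized values were not used.

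Counts were scaled by TMM and filtered by edgeR's filterByExpr with default settings, which kept 12351 genes. The groups were compared with edgeR 4.0.16's quasi-likelihood F-test (robust, R 4.3.3, two-sided, no covariates) with Benjamini-Hochberg adjustment over all genes tested. A standard error is the log2 fold change divided by the square root of F. The biological coefficient of variation was 29.2%. The script was tested on simulated data. Alternatives were RLE scaling, library totals, no filter, DESeq2 1.42.0, limma-voom (limma 3.58.1), a replicate block and each library left out.

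The members were given by symbol, and whether earlier results of these data guided that choice is not known. The other lists were chosen with earlier results of these data known. Per-library values are given for members past the threshold, for Tgfb1 to Tgfb3, Tgfbr1, Tgfbr2 and Smad7, and for others where the text describes libraries. From each other list at most the 4 called genes with the smallest p are named. Exon lengths, overlaps and gene coordinates are from GENCODE M21 (GRCm38), and start regions from RefSeq (GRCm38.p6), which listed 32 of the members. The table itself gives no coordinates. No pair of libraries of a group agreed within sampling noise.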

Additional observations from a re-analysis of the deposited data

Results flagged for a closer look

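Of 124 groups of 4 libraries checked, 4 held a library far from the other 3 (by Dixon's test of the gap over the range, at the 95% level), where chance flags about 1 in 20. In WT replicate 3, Smad4 stood at 0.993 CPM, below the 1.90 to 1.99 CPM of the other WT libraries. In WT replicate 4, the BMP-binding protein gene Bmper stood at 1.82 CPM, above 0.343 to 0.474 CPM in the others. Dab2 was at 21.3 CPM in WT replicate 3 (others 19.3 to 19.6), and Col3a1 at 20.2 CPM in WT replicate 2 (others 17.9 to 18.2).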

How the results depend on the processing

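Of the member values, 515 kept their direction and side of the threshold over 14 other settings, 51 lost the call, 20 gained it and 16 turned sign, and 5 of 12 members passed whichever library was removed. With RLE scaling the counts of calls were within 1.5 times the main ones. With library totals alone, 3071 of all genes were higher and 220 lower, members were 18 and 0, and 0 other pathway genes were lower. DESeq2 called 1361 of all genes lower, 5 members and 5 other pathway genes. Limma-voom called 6 members higher. Leaving out 1 library gave 636 to 2238 higher and 185 to 1504 lower over all genes, 4 to 15 and 1 to 3 over members, and 11 to 35 and 1 to 4 over the other pathway genes. The labels do not say that replicate numbers pair the libraries. NASH and WT libraries of the same number correlated at 0.047, −0.187, −0.194 and −0.0164 in their deviations from group means. Those of unlike number correlated at −0.308 to 0.304. With 4 libraries a group, these values cannot decide whether the numbers pair. With the replicate block, 467 of all genes were higher and 151 lower, 2 members higher and 1 lower, and 11 and 0 other pathway genes. Sign changes were limited to members that had not passed, here with their leave-one-out range. With library totals alone Bmpr1a was 0.16, Tgfbr3 0.31, Ltbp4 0.20, Smad1 0.29, Smad3 0.31, Smad4 0.15, Smad5 0.27 and Smad7 0.14. Leaving out 1 library, Bmp7 ranged from −0.82 to 0.064 (without NASH replicate 3), Inhba from −0.11 (without NASH replicate 3) to 1.13, Inhbb from −0.083 (without NASH replicate 3; −0.04 without WT replicate 3) to 0.55, and Skil from −0.055 (without NASH replicate 3) to 0.26. Tgfbr3 ranged from −0.22 to 0.10 (without WT replicate 2; 0.06 without NASH replicate 1) and Smad3 from −0.24 to 0.058 (without NASH replicate 2). The cause of these changes was not tested. Counts over all libraries were low for Gdf3, Acvr2b, Smad4 and Fstl3, among others.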

Other observations

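Of the superfamily ligands outside the set, Bmp8b was chosen here after its values were seen. It lay below the low-count filter, with 0.0394, 1.52, 6.47 and 5.82 CPM in NASH replicates 1 to 4, against 0, 0, 0.0343 and 0.105 CPM in WT replicates 1 to 4. Its counts summed to 472 in NASH and 4 in WT, and without the filter edgeR gave a log2 fold change of 6.41 ± 1.43 (adjusted p = 0.0223). Bmp8a, a close paralog with which it may share reads, had 4 counts in NASH and 2 in WT.

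Hamp, the hepcidin gene that BMP signals induce, was also picked after its values were seen. It had 238, 69.3, 42.2 and 107 CPM in NASH replicates 1 to 4, against 290, 193, 339 and 439 CPM in WT replicates 1 to 4. The log2 fold change of −1.47 ± 0.49 did not pass (adjusted p = 0.0656), and the groups overlapped through NASH replicate 1.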
